A study of Mus musculus with 6 samples.

Results

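The chaperones considered here are BiP (*Hspa5*) and GRP94 (*Hsp90b1*), which are the Hsp70 and Hsp90 proteins of the endoplasmic reticulum (ER), together with 8 ER co-chaperones and cofactors, *Hyou1*, *Sil1*, *Dnajb9*, *Dnajb11*, *Dnajc3*, *Sdf2l1*, *Creld2* and *Manf*. They were chosen by name as a chaperone group, not by a threshold on their levels, though with earlier results of these data known, and make up 10 of the 54446 genes in the deposited values. RNA came from naive B cells of mouse spleen (mixed C57BL/6J and CBA background), enriched by negative magnetic selection and then cultured for 7 days with the mitogen LPS at 20 µg/ml and with the cytokine IL-4 at 20 ng/ml, which drive B cells to divide and to develop towards antibody secretion. The series has 3 libraries labelled *Tent5c* KO and 3 labelled WT, and both genotypes received the same culture. The methods of the study take each replicate from KO and WT littermates. Libraries of the same replicate number are therefore treated as littermates (pairs 1, 2 and 3). TENT5C is a cytoplasmic poly(A) polymerase, and the comparison asked how its loss affects mRNA levels in these cells. The methods of the study put the age of the littermates at 12 to 15 weeks. The libraries held 6650817, 6564640 and 6793520 fragments on genes in the libraries labelled KO and 6669652, 6082854 and 5393558 in WT.

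*Tent5c* itself did not separate the genotypes. It had 1255, 767 and 1584 normalized counts (fragments divided by the size factor of the library) in the WT libraries of pairs 1, 2 and 3, and 1993, 993 and 1170 in the libraries labelled KO. The groups overlapped, and the KO library was the higher in pairs 1 and 2 and the lower in pair 3 (log2 fold change 0.20, SE 0.19, limma adjusted *p* = 0.970). The labels do not say which bases the KO lacks, and the counts cover the whole gene, so these values do not check the genotype, and KO stands for the label in what follows.

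BiP holds unfolded chains in the ER, among them antibody heavy chains that wait for a light chain. J-domain proteins such as ERdj4 (*Dnajb9*), ERdj3 (*Dnajb11*) and p58IPK (*Dnajc3*) bring substrates to BiP and stimulate its ATPase, nucleotide exchange factors (*Sil1* and *Hyou1*, also called GRP170) let it release them, and GRP94 folds a narrower set of clients further along the path. These genes are classical targets of the unfolded protein response, and antibody-secreting cells are known for high levels of them.

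Promoters show a sequence that several of these genes share. RefSeq promoter sequences (GRCm38.p6, from 250 bases before the start of the gene to 50 after it) were available for 7 of the 10 genes, namely *Hspa5*, *Hsp90b1*, *Dnajb9*, *Dnajb11*, *Dnajc3*, *Sdf2l1* and *Creld2*. *Hyou1*, *Sil1* and *Manf* were not matched. The ER stress response element (ERSE), which binds NF-Y together with ATF6 or XBP1, was searched on both strands as CCAAT and CCACG with any 9 bases between them. It was found in 4 of the 7 promoters and in 0.119% of all 32851 promoters of this length (39 of them). The sequences below are shown because they hold these matches, with the fixed letters of the element in capitals (CGTGG and ATTGG where it lies on the opposite strand). They run 5′ to 3′ on the strand of the gene and stop before the first base that Gencode or RefSeq places in a transcript, except that 30 bases around the match are shown for *Hspa5*, whose Gencode model begins 120 bases upstream of the RefSeq start. The *Hspa5* stretch is chr2:34772020-34772049 (plus strand), that of *Hsp90b1* chr10:86705510-86705694 (minus strand), that of *Dnajc3* chr14:118937682-118937931 (plus strand) and that of *Creld2* chr15:88819396-88819645 (plus strand).
*Hspa5*: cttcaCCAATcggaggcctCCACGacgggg
*Hsp90b1*: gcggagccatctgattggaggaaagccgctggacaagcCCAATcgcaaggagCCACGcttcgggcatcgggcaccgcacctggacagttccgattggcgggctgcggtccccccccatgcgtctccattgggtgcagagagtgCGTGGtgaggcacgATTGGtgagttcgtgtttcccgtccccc
*Dnajc3*: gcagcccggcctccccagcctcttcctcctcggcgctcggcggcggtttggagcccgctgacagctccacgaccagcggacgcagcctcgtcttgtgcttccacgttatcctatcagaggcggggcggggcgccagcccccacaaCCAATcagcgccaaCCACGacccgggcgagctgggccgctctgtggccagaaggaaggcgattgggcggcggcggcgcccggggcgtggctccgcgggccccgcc
*Creld2*: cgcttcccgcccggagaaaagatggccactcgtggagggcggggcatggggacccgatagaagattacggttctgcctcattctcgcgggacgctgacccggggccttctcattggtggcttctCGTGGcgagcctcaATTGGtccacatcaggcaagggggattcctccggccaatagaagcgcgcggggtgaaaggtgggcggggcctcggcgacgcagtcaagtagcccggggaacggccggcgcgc

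The *Hsp90b1* promoter held the element on both strands, and the other 3 held it on either the same strand as the gene (*Hspa5*, *Dnajc3*) or the opposite strand (*Creld2*). A variant of the element, ERSE-II (ATTGG and CCACG with any 1 base between them), lay from 8 to 18 bases after the RefSeq start of *Dnajb11*, at chr16:22857844-22857872 with its flanks (plus strand), while 0.0365% of all promoters held it (12 promoters).
*Dnajb11*: cggcggcgATTGGcCCACGcctggctgct

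An element bound by XBP1 (TGACGTGG) was in none of the 7 (0 of 7) and in 0.676% of all promoters, which says only that these letters are not in these windows. Of the parts of the ERSE, CCAAT was present in 7 of 7 promoters against 37.4% of all, and CCACG in 7 of 7 against 32.8%. These promoters were rich in G and C, 61.3% to 74.3% of their bases, beside a median of 52.7% over all promoters. The matches overlap by construction, since each ERSE contains both parts, and they describe sequence alone.

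In all 10 genes the level was lower in the library labelled KO than in its WT littermate in all 3 pairs. All 10 were among the 12322 genes tested, those averaging 10 normalized counts or more, of which 13.1% were lower in all 3 pairs. The median log2 fold change of the 10 genes was -0.40, with a range from -0.50 (*Sdf2l1*) to -0.26 (*Dnajb11*), and the median of all genes tested was 0.00067, with 49.8% of genes below 0. No gene of the 10 passed an adjusted *p* of 0.05 in limma, which called 0 of 12322 genes lower (0%), and edgeR called 0 of them as well (0% of 12322). At an unadjusted *p* under 0.05, all 10 were lower in limma and in edgeR. Beside them were 3.03% of all genes in limma (373 genes, with 206 higher) and 2.99% of all in edgeR (368 genes). In DESeq2 8 of the 10 were lower, beside 0.786% of the 24684 genes it gave a *p*-value. Those genes include ones averaging under 10 normalized counts, so this share is not on the same set as the limma and edgeR shares. Without the littermate pairs in the limma model, 3 of the 10 were lower at an unadjusted *p* under 0.05 (1.38% of all genes). Without pair 1, limma called 5 of the 10 lower (*Hsp90b1*, *Hyou1*, *Sdf2l1*, *Creld2* and *Manf*), beside 168 of all genes (1.36%). DESeq2, which the methods of the study name, was run here at default settings with replicate number as a term. It called *Hspa5* alone of the 10 (23 of 8413 genes lower, 0.273%). In bulk RNA, fewer cells of a type and less RNA per cell cannot be told apart.

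**Figure D1:**
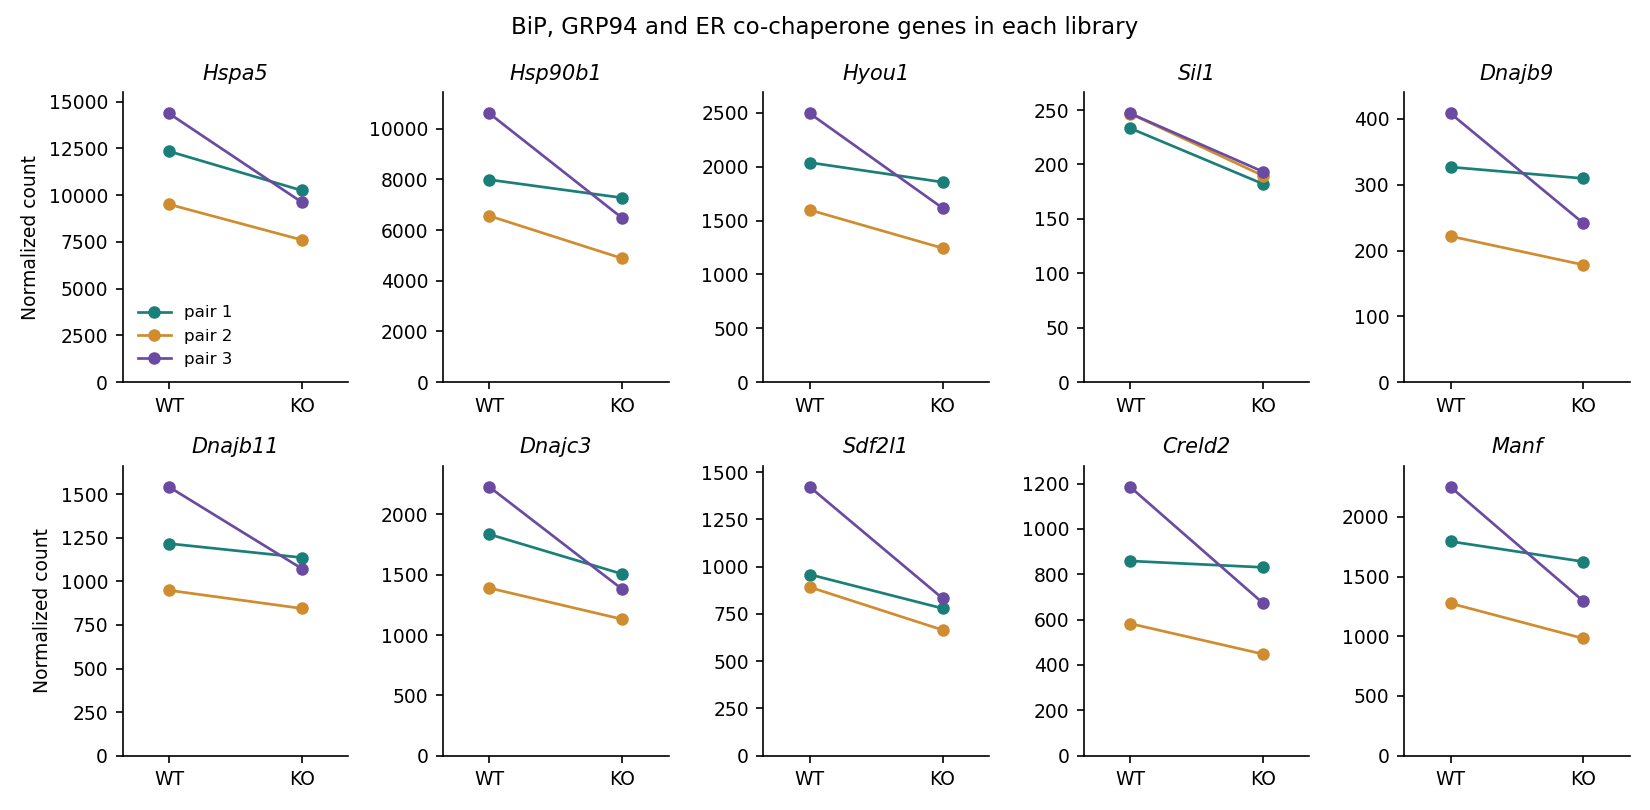
Normalized counts of each of the 10 genes (y axis, from 0, with its own scale in each panel) in the WT and KO libraries, joined by a line within each littermate pair. Every line slopes down from WT to KO, and for 9 genes both libraries of pair 2 lie lowest within their genotype, *Sil1* being the exception.

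*Hspa5* (ENSMUSG00000026864, chr2:34771970-34777547 of GRCm38), which encodes BiP, was the most abundant of the 10 genes per length. Its normalized counts were 12347, 9509 and 14369 in the WT libraries of pairs 1, 2 and 3, and 10252, 7608 and 9625 in the KO libraries. The WT library of pair 3 was the highest of the 6 and the KO library of pair 2 the lowest, and the groups overlapped, as WT in pair 2 lay below KO in pairs 1 and 3. The means were 12075 ± 2441 in WT and 9162 ± 1381 in KO (SD, n = 3). Within pairs, the log2 ratio of KO to WT was -0.27, -0.32 and -0.58, with an SD of 0.17 between pairs. The counting error of these ratios was 0.019 to 0.022 (SD on the log2 scale), which leaves out differences between mice. The log2 fold change was -0.39 (SE 0.080, 95% interval -0.58 to -0.20, limma adjusted *p* = 0.693, DESeq2 adjusted *p* = 0.0260). Over the alternative fits its adjusted *p* ran from 0.0260 in DESeq2 to 1.00. Its promoter holds the ERSE printed above from 65 to 47 bases before the RefSeq start.

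*Hsp90b1* (ENSMUSG00000020048, chr10:86690209-86705509), the gene of GRP94, came next in level. It had 7987, 6559 and 10600 normalized counts in WT and 7274, 4883 and 6477 in KO. Pair 1 showed the smallest difference and pair 3 the largest, and KO in pair 1 lay above WT in pair 2, so the groups overlapped. The log2 ratios were -0.13, -0.43 and -0.71, and the log2 fold change was -0.42 (SE 0.11, limma adjusted *p* = 0.849, DESeq2 adjusted *p* = 0.0774). The exons of *Hsp90b1* share 84 bases with *Gm15344* and 133 bases with *Gm25745* on the same strand, where fragments of these genes cannot be told apart. *Hspa5* and *Hsp90b1* together made up 68.0% to 69.2% of the normalized counts of the 10 genes in every library, KO and WT alike.

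The nucleotide exchange factors behaved differently from each other in their spread. *Hyou1* (chr9:44379490-44392369), which encodes a large Hsp70-like protein that also binds unfolded chains itself, had 2039, 1599 and 2495 normalized counts in WT and 1857, 1245 and 1617 in KO. Its groups overlapped, with WT in pair 2 below KO in pairs 1 and 3, and its log2 fold change was -0.37 (SE 0.097, limma adjusted *p* = 0.849). *Sil1* (chromosome 18), the least abundant of the 10 per length, had 233, 247 and 247 normalized counts in WT and 182, 190 and 193 in KO. All 3 KO libraries lay below all 3 WT libraries, and libraries of a genotype spanned a factor of only 1.06 in either group. The log2 ratios of *Sil1* were -0.36, -0.38 and -0.35, closer to each other than their counting error of 0.14 (SD), and the log2 fold change was -0.36 (SE 0.089, limma adjusted *p* = 0.738, DESeq2 adjusted *p* = 1.00).

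Of the J-domain protein genes, *Dnajc3* (chr14:118937976-118981697) had the lowest log2 fold change over the 3 pairs, although *Dnajb9* was lower in pairs 2 and 3 and, without pair 1, stood at -0.53 against -0.49. *Dnajc3*, whose product p58IPK binds unfolded chains in the ER lumen, had 1835, 1390 and 2227 normalized counts in WT and 1506, 1131 and 1380 in KO, with log2 ratios of -0.28, -0.30 and -0.69 (log2 fold change -0.42, SE 0.093, limma adjusted *p* = 0.737). WT in pair 2 lay between KO libraries, so the groups overlapped. *Dnajb11* (chr16:22857845-22879634), whose product ERdj3 can also be secreted with its clients, had 1216, 948 and 1541 normalized counts in WT and 1136, 845 and 1073 in KO. Its difference was the smallest of the 10, with log2 ratios of -0.10, -0.17 and -0.52 (log2 fold change -0.26, SE 0.094, limma adjusted *p* = 0.970), and the groups overlapped. *Dnajb9* (chr12:44205559-44210326), whose product ERdj4 also recruits BiP to the stress sensor IRE1, had 327, 222 and 408 normalized counts in WT and 310, 178 and 242 in KO. In pair 1 its log2 ratio of -0.078 was within the counting error of 0.11 (SD), which leaves out differences between mice. The ratios of pairs 2 and 3 were -0.31 and -0.75, and the groups overlapped (log2 fold change -0.38, SE 0.14, limma adjusted *p* = 0.970).

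*Sdf2l1* (ENSMUSG00000022769, chr16:17130138-17132383), whose product forms a complex with ERdj3 and keeps BiP clients soluble, had the largest fold change over the 3 pairs. Without pair 3 its log2 fold change was -0.360, and that of *Sil1* was larger in size at -0.366. *Sdf2l1* had 959, 892 and 1422 normalized counts in WT and 780, 665 and 833 in KO. Here no KO library reached any WT library, and the mean in KO was 0.696 of that in WT. The log2 ratios were -0.30, -0.42 and -0.77 (log2 fold change -0.50, SE 0.099, 95% interval -0.74 to -0.26, limma adjusted *p* = 0.693, DESeq2 adjusted *p* = 0.0774). *Sdf2l1* and *Sil1* were thus the 2 of the 10 genes whose groups did not overlap, and 3.44% of all genes tested were lower in KO without overlap.

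*Creld2* and *Manf* encode small ER proteins that are induced by stress and can be secreted, and the log2 ratio of *Creld2* varied most between pairs among the 10 genes. *Creld2* (chr15:88819646-88826683) had 858, 582 and 1185 normalized counts in WT and 831, 448 and 673 in KO, with log2 ratios of -0.048, -0.38 and -0.82. The ratio of pair 1 was within its counting error of 0.068 (SD), and the WT libraries alone spanned a factor of 2.03, more than for any other gene of the 10. *Manf* (chr9:106838312-106891979), whose product binds BiP and slows its release of clients, had 1794, 1276 and 2250 normalized counts in WT and 1625, 982 and 1294 in KO, with log2 ratios of -0.14, -0.38 and -0.80. Groups overlapped in both genes, and the log2 fold changes were -0.41 (SE 0.14, limma adjusted *p* = 0.970) for *Creld2* and -0.44 (SE 0.12, limma adjusted *p* = 0.874) for *Manf*. *Manf* shares 14 exon bases on the same strand with *Rbm15b*.

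**Figure D2:**
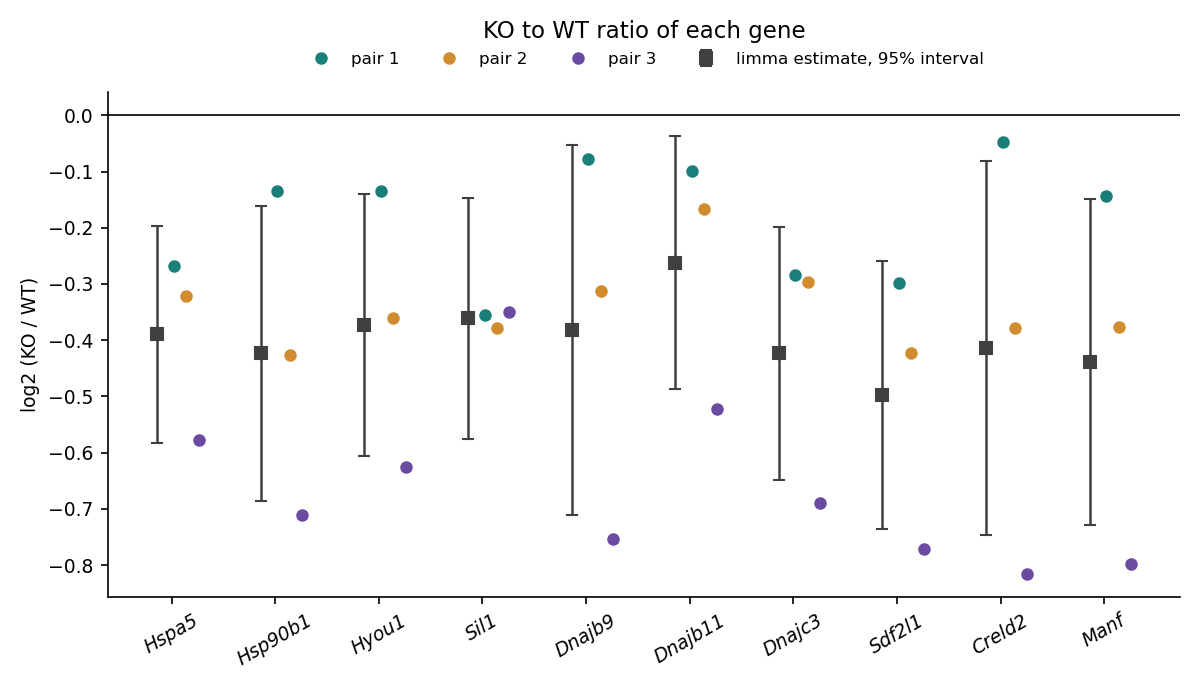
Log2 ratio of KO to WT for each gene (y axis) in the 3 littermate pairs (coloured points) and as the limma estimate with its 95% interval (squares with bars). All points lie below 0, those of pair 3 lie lowest for 9 of the 10 genes, and those of *Sil1* lie within -0.38 to -0.35.

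The size of the difference depended on the pair. Over the 10 genes, median log2 ratios of -0.14, -0.37 and -0.70 were found in pairs 1, 2 and 3, while that of all genes tested was -0.0093, 0.000025 and 0.0032. In pair 1, *Sil1* was the lowest of the 10 and *Creld2* the highest, and in pair 3 the order of these genes was the opposite, with *Creld2* at -0.82 and *Sil1* at -0.35. Of all fragments on genes, the 10 genes took 0.470%, 0.365% and 0.566% in WT and 0.410%, 0.290% and 0.379% in KO. The mean share was 0.467% ± 0.10 in WT and 0.360% ± 0.062 in KO (SD, n = 3). KO in pair 1 took a larger share than WT in pair 2, so the shares of the groups overlapped, although KO was the lower in every pair. In 9 genes the range of the pair means on the log2 scale (0.47 in *Hspa5*, 0.80 in *Creld2*) exceeded the size of the log2 fold change. A range over 3 pairs and a difference between the groups are unlike measures, so this does not rank pair against genotype. *Sil1* was the exception, with a range of 0.084 beside a log2 fold change of -0.36. Of the 9 genes, *Sdf2l1* was almost level, with a range of 0.498 beside a log2 fold change of -0.497. Without pair 3, the median log2 fold change of the 10 genes was -0.27, and without pair 1 it was -0.51. The log2 fold change of *Dnajb11* was -0.13 without pair 3, that of *Dnajb9* -0.20 and that of *Creld2* -0.21. *Manf* stood at -0.26 without pair 3, *Hsp90b1* at -0.28, *Hyou1* at -0.25 and *Sil1* at -0.37.

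Per kilobase of exon, the levels spanned a factor of 40.1. The mean over the 6 libraries was 2511 normalized counts per kilobase for *Hspa5*, 1810 for *Hsp90b1*, 835 for *Sdf2l1*, 558 for *Creld2* and 436 for *Manf*. The lower 5 were *Dnajb11* at 348, *Dnajc3* at 307, *Hyou1* at 250, *Dnajb9* at 110 and *Sil1* at 62.7 normalized counts per kilobase. Each of the 9 neighbours in this order stood in the same order in 6 of 6 libraries, although the ranges over libraries overlapped for every neighbouring pair of genes except *Hyou1* and *Dnajb9*. The order thus held within a library, while a level read from another library could fall on either side.

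**Figure D3:**
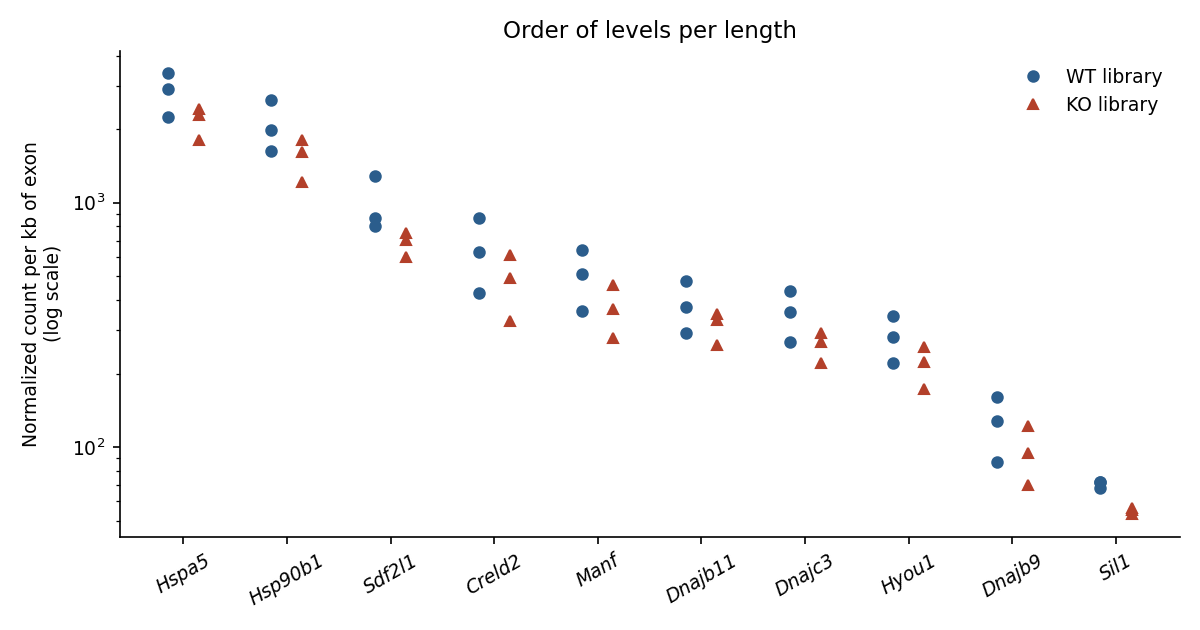
Normalized counts per kilobase of exon (y axis, log scale) for the 10 genes in order of their mean, with a circle for each WT library and a triangle for each KO library. *Hspa5* and *Hsp90b1* stand at the top and *Sil1* at the bottom, and the circles and triangles of *Sdf2l1* and *Sil1* do not overlap.

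The levels were also set against that of BiP. Per 100 normalized counts per kilobase of *Hspa5*, there were 72.5 ± 4.8 of *Hsp90b1* in WT and 70.8 ± 3.6 in KO, and 12.3 ± 0.38 of *Dnajc3* in WT and 12.0 ± 0.22 in KO (SD, n = 3). *Dnajb11* stood at 13.3 ± 0.62 in WT and 14.5 ± 0.046 in KO. It was higher relative to *Hspa5* in all 3 pairs (by 0.17, 0.15 and 0.056 on the log2 scale). *Hspa5* itself was lower in KO in every pair, so a gene of unchanged level would also be higher relative to it. The level of *Dnajb11* itself was lower in KO in every pair. *Sdf2l1* stood at 34.4 ± 4.2 in WT and 31.8 ± 2.4 in KO, lower relative to *Hspa5* in all 3 pairs (log2 differences of -0.030, -0.10 and -0.19). *Hsp90b1*, *Hyou1*, *Creld2* and *Manf* were higher relative to *Hspa5* in pair 1 and lower in pairs 2 and 3. None of these ratios was tested.

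Over the 6 libraries, the level of *Hspa5* on the log2 scale followed those of 8 of the other 9 genes closely, with Pearson *r* from 0.918 (*Sdf2l1*) to 0.996 (*Dnajc3*). For *Sil1*, *r* was 0.616. Outside the 10 genes, the profile most like their mean was that of *Igkv17-121* (*r* = 0.998 over 6 libraries), followed by *Igkv17-127* (0.997), *Igkv12-44* (0.994), *Slc38a10* (0.993) and *Selenok* (0.992). *Igkv* genes encode the variable part of the antibody kappa chain, *Slc38a10* an amino acid transporter and *Selenok* a selenoprotein of the ER membrane. Nearest to *Hspa5* were *Dnajc3*, *Slc38a10* (0.994), *Igkv6-15* (0.994), *Igkv6-25* (0.991) and *Sdf4* (0.991), which encodes a calcium-binding protein of the secretory pathway. Of the 7896 genes compared with the mean profile, 294 had *r* above 0.9. The points share genotype, littermate pair and scaling, so *r* is given as a description only.

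Antibody mRNAs differed by pair in the same order as the chaperones. Of the antibody (Ig) genes, 201 were tested and 156 were lower in all 3 pairs, with a median log2 fold change of -0.78 and median log2 ratios of -0.32, -0.63 and -1.34 in pairs 1, 2 and 3. Their summed normalized counts were 158572, 96387 and 214661 in WT and 131061, 64193 and 95222 in KO, highest in the WT library of pair 3 and lowest in the KO library of pair 2, as for *Hspa5*. Plasma cell markers (8 genes, 7 of which averaged 10 or more, the most abundant being *Pou2af1*) summed to 19065, 15294 and 27377 normalized counts in WT and 24612, 15170 and 18571 in KO. Their log2 ratios were 0.37, -0.012 and -0.56, so they were higher in KO in pair 1, in which the chaperones were lower. B cell markers (7 of 7 detected) had summed log2 ratios of -0.18, -0.15 and 0.064, in which *Cd74* is the largest term, and median log2 ratios over the 7 genes of -0.053, -0.096 and 0.36. The part of the shares of plasma cells and B cells in the chaperone levels was not tested.

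**Figure D4:**
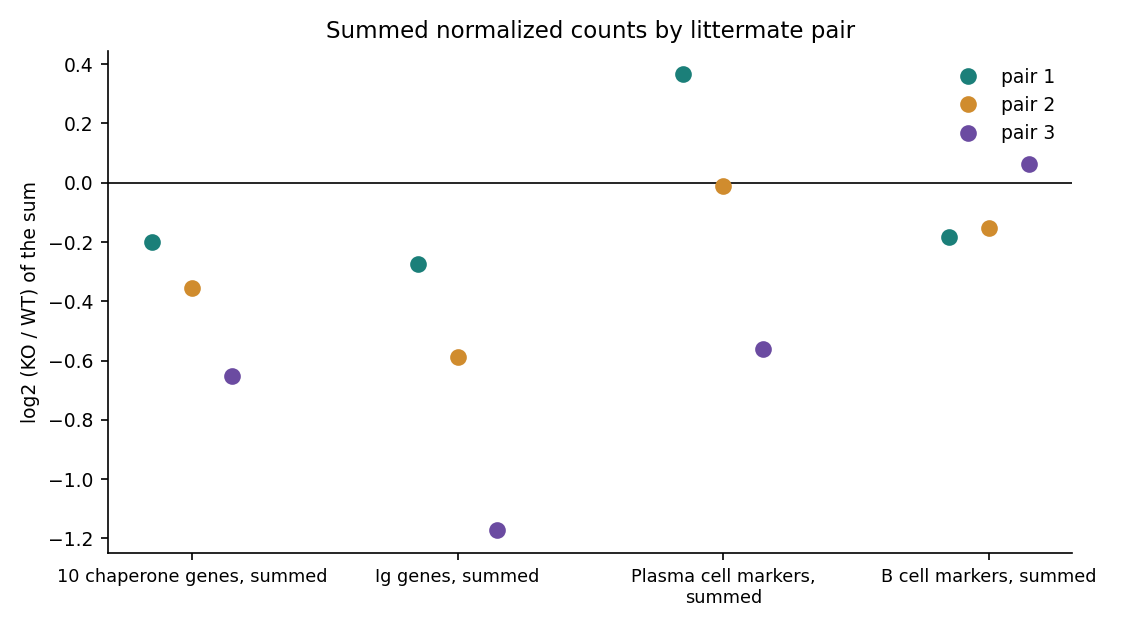
Log2 ratio of KO to WT (y axis) of summed normalized counts in each littermate pair for the 10 chaperone genes, the Ig genes, the plasma cell markers and the B cell markers. Chaperone and Ig sums lie below 0 in all 3 pairs and lowest in pair 3, whereas plasma cell markers lie at 0.37, -0.012 and -0.56.

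By their defining genes, the cultures were B-lineage cells. *Cd74*, *Cd79b* and *Ms4a1* led the B cell markers, with log2 fold changes of -0.18, 0.0038 and -0.010, and *Pou2af1*, *Jchain* and *Xbp1* led the plasma cell markers, with -0.054, -0.47 and 0.19. Other B cell markers, named after their values were seen, stood at 0.83 for *Cr2* (higher in KO in all 3 pairs, limma adjusted *p* = 0.737), 0.16 for *Pax5*, 0.12 for *Cd22* and -0.21 for *Cd79a* (lower in all 3 pairs without overlap, limma adjusted *p* = 0.970). Without pair 3, *Pax5* stood at -0.041 and *Cd22* at -0.0012, so both were above 0 through pair 3, and the sign of *Cd79b*, *Ms4a1*, *Pou2af1*, *Jchain* and *Xbp1* also turned when a pair was left out. Of 10 T cell markers, 1 averaged 10 normalized counts or more, *Thy1* (mean 354, log2 fold change -0.20, or -0.094 without pair 2), which activated B cells of the mouse can also express, while *Trbc2* had means of 11.3 in WT and 6.46 in KO and *Trbc1* 3.21 and 3.08. The summed T cell markers were 326, 457 and 486 normalized counts in WT and 302, 354 and 419 in KO. Of 10 myeloid markers, 2 had a mean of at least 10 (*Lyz2*, the most abundant at a mean of 44.7, and *Adgre1*), *Cd14* had a mean of 2.18 in WT and less in KO, and *S100a8*, *S100a9*, *Ly6g* and *Elane* were at 0 in all libraries. Their sum was 81.2, 64.8 and 90.3 in WT and 131, 20.0 and 90.8 in KO. Of 6 erythroid markers none reached a mean of 10 (0 of 6), with *Klf1* at 1.95, *Hbb-bt* at 0.978 in WT and 2.83 in KO and *Alas2* at 0 and 0.318, and *Hba-a1*, *Hba-a2* and *Hbb-bs* were at 0.

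Other folding genes of the ER were also mostly below WT, with list medians closer to 0 than that of the 10 genes. Of 15 other J-domain proteins and cofactors of BiP and GRP94, 14 were tested, 12 had a negative log2 fold change, 3 were lower in all 3 pairs and 1 was lower at an unadjusted limma *p* under 0.05, the median being -0.069. That gene was *Hspa13*, an Hsp70-like ATPase of the microsome, with -0.37 (SE 0.13, limma adjusted *p* = 0.970) and log2 ratios of -0.25, -0.12 and -0.75, and it stood at -0.18 without pair 3. The most abundant of these per length, *Cnpy3* and *Cnpy2*, which assist GRP94 or resemble its helper, and *Sdf2*, the paralogue of *Sdf2l1*, had log2 fold changes of -0.085, -0.046 and -0.053, with a log2 ratio above 0 in pair 2 for each. *Sdf2* had 265 ± 40.4 normalized counts in WT and 253 ± 13.7 in KO, so the paralogue differed by less than its spread.

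Disulfide isomerases and oxidation factors, which form and reshuffle the bonds of secreted proteins, had a median of -0.17 on the log2 scale (14 of 15 tested, 12 negative, 7 lower in all pairs, 6 at an unadjusted *p* under 0.05). Their most abundant genes were *Pdia4* with -0.30 (SE 0.059), *P4hb* with -0.27 (SE 0.11) and *Pdia6* with -0.38 (SE 0.11), and none was called by limma or DESeq2. Without pair 3, *P4hb* stood at -0.11 and *Pdia6* at -0.21, and *Pdia4* at -0.32. Of the lectin chaperones and prolyl isomerases, which fold glycoproteins and turn proline bonds, 10 of 13 were tested and all 10 had a negative log2 fold change (median -0.16, 7 lower in all pairs, 4 at an unadjusted *p* under 0.05). *Ppib* (cyclophilin B), which works in a complex with BiP and GRP94, had 2388 ± 374 normalized counts in WT and 1747 ± 43.8 in KO, and a log2 fold change of -0.44 (SE 0.084, limma adjusted *p* = 0.693), and was called by DESeq2 (adjusted *p* = 0.0420, the range over alternative fits being 0.0420 to 1.00). *Calr* and *Canx*, the calreticulin and calnexin genes, had -0.32 (SE 0.069) and -0.11 (SE 0.062). *Fkbp11*, a prolyl isomerase named after its values were seen, was the lowest of that list at -1.13 (SE 0.36, limma adjusted *p* = 0.970), with 116, 56.5 and 167 normalized counts in WT and 72.7, 42.9 and 32.7 in KO. Its groups overlapped, and the ratio of pair 3 was the lowest, the log2 fold change being -0.53 without it.

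Degradation genes and sensing genes were looked at as separate lists. ER-associated degradation genes, which return misfolded chains to the cytosol, had a median of -0.19 (15 of 15 tested, 14 negative, 9 lower in all pairs, 4 at an unadjusted *p* under 0.05). The median log2 ratios of this list were -0.070, -0.086 and -0.36 in pairs 1, 2 and 3. *Herpud1* stood at -0.21 (SE 0.070), *Edem1* at -0.24 (SE 0.11) and *Derl1* at -0.19 (SE 0.091). Without pair 3 these were -0.14, -0.060 and -0.066. Sensors and transcription factors of the unfolded protein response had a median of -0.076 (10 of 10 tested, 7 negative, 2 lower and 1 higher in all pairs, 0 at an unadjusted *p* under 0.05 in limma, and 0 called by limma, edgeR and DESeq2). Their median log2 ratios were 0.060, -0.0088 and -0.33 in pairs 1, 2 and 3, and so above 0 in pair 1. *Xbp1*, whose product drives the secretory programme of plasma cells, was higher in KO in pairs 1 and 2 (log2 ratios 0.72 and 0.24) and lower in pair 3 (-0.40), with a log2 fold change of 0.19 (SE 0.19). *Atf4* and *Atf6* stood at -0.093 (SE 0.060) and -0.12 (SE 0.14), *Atf6* being above WT in pairs 1 and 2. Without pair 3 these were -0.056 and 0.097. The counts do not separate spliced from unspliced *Xbp1*, or the cleaved from the whole ATF6 protein.

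Chaperones of the same families outside the ER stood at the level of all genes. Of 28 such genes 27 were tested, 10 had a negative log2 fold change, 1 was lower and 2 were higher in all 3 pairs, and 0 had an unadjusted limma *p* under 0.05, with 0 called by limma, edgeR and DESeq2 and a median of 0.021. *Hspa8*, the constitutive cytosolic Hsp70 and so a relative of BiP, had 12102 ± 1161 normalized counts in WT and 12546 ± 2096 in KO (log2 fold change 0.042, SE 0.076). *Hsp90ab1* and *Hsp90aa1*, the cytosolic relatives of GRP94, had 0.017 (SE 0.092) and 0.035 (SE 0.072). All 3 had log2 ratios of either sign among the pairs.

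**Figure D5:**
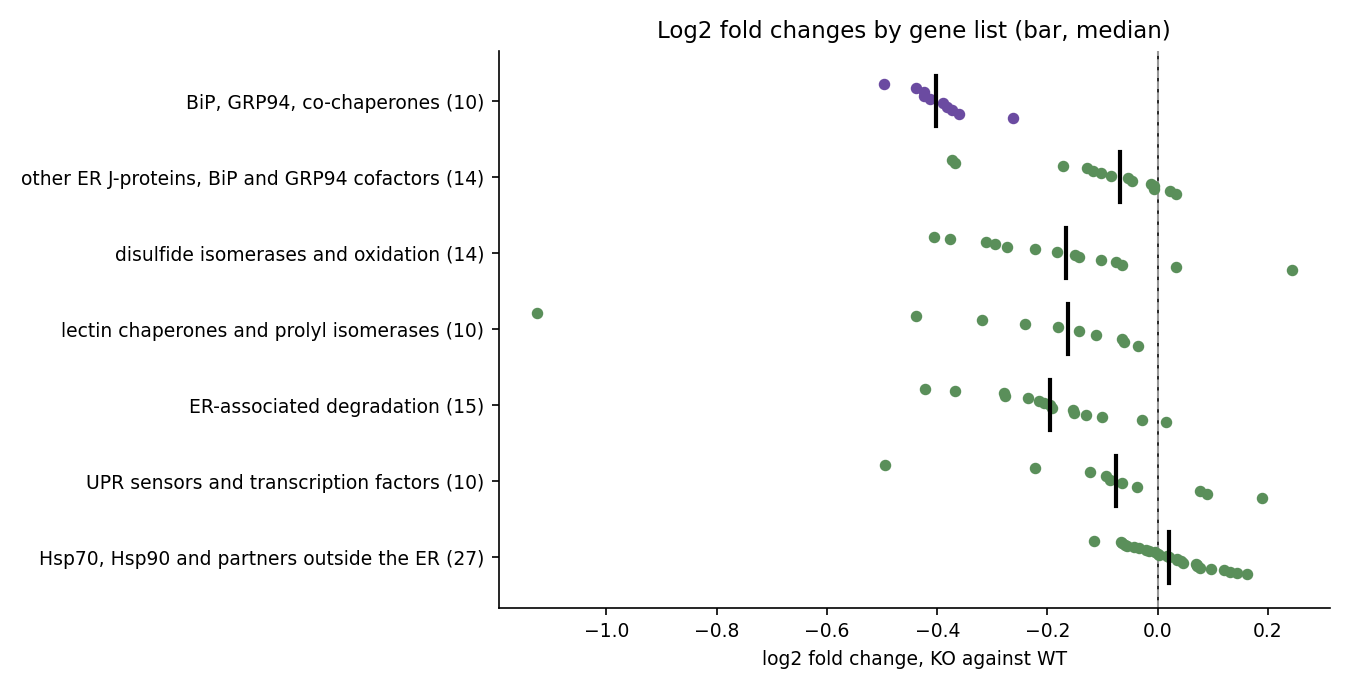
Log2 fold change of KO against WT (x axis) for each tested gene of 7 lists (number tested in brackets), with a black bar at the median of the list and a dashed line at the median of all genes tested. The medians run from -0.40 for the 10 chaperone genes to 0.021 for the chaperones outside the ER.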

How the data were processed

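Ribodepleted total RNA was sequenced in strand-specific paired-end libraries. The authors aligned reads with STAR to GRCm38, counted fragments on exons by strand with featureCounts (Gencode vM19) and deposited these counts divided by DESeq2 size factors, a count-like signal listed for 54446 genes. Because libraries were scaled to each other, a change shared by most mRNAs cannot be seen. All values above 0 were whole multiples of a step per library (within 0.01 fragment), which gave back the fragments (5393558 to 6793520 per library, with counting error only in the SDs called so). Positions came from Gencode vM21, which matched 54409 identifiers.

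The test was limma 3.58.1 (R 4.3.3; lmFit, eBayes with trend, two-sided) on log2(normalized count + 1) for genes with a mean of at least 10 (so fold changes of low genes are understated), with genotype and littermate pair as terms and Benjamini-Hochberg adjustment over the 12322 genes. Littermate pairs were read from the replicate numbers of the labels. Deviations from group means correlated within pairs at *r* = 0.328, 0.685 and 0.170. Libraries of pairs 1 and 3 correlated with each other at 0.260 and 0.282, above the value within pair 3. The pairing therefore rests on the littermates named in the methods of the study and on the replicate numbers, not on these correlations. No library was a duplicate (chi-square per gene 4.82 to 24.3). The fragments were also fitted with DESeq2 1.42.0 and edgeR 4.0.16. Other alternatives were the pseudocount, filter, scaling, pairing and leaving out each pair. The genes and lists were chosen with earlier results of these data known. Named listed genes are the 3 most abundant per kilobase and any called by limma or DESeq2, and the 5 genes of most similar profile (mean of at least 100). *Fkbp11* was named as the lowest of its list and *Hspa13* because it was the only gene of its list at an unadjusted *p* under 0.05. Some genes of the marker lists are not reported here. Nanopore data were not analysed here.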

Additional observations from a re-analysis of the deposited data

How the results depend on the processing

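The 10 chaperone genes had a log2 fold change below 0 in 130 of 130 values from the alternative fits, which is no sign of stability where a pair was left out, as all pair ratios were below 0, or where a fit returns the same fold change by construction (filter, pairing). Their median lay between -0.51 (without pair 1) and -0.27 (without pair 3). Calls were less stable. DESeq2 called 23 genes lower and 1 higher, 1 of the lower being a chaperone gene. Leaving out a littermate pair gave 0 to 168 genes lower, 0 to 3 higher and 0 to 5 chaperone genes called lower, the highest counts being those without pair 1. Over all fits, the adjusted *p* of a chaperone gene ran from 0.0175 (*Hsp90b1* without pair 1) to 1.00. The fit without the replicate block left 3 chaperone genes at an unadjusted *p* under 0.05, and the median was -0.40 with and without the replicate block. The cause of these shifts was not tested. Among other named genes the sign turned in these cases. *Cd74* was at 0.16 and *Ms4a1* at 0.080 after quantile normalization, *Ms4a1* at 0.00019 after TMM scaling and *Lyz2* at 0.018 in edgeR. With each pair left out in turn, the log2 fold change ran from -0.17 to 0.0037 for *Cnpy3*, from -0.13 to 0.055 for *Cnpy2*, from -0.14 to 0.0064 for *Sdf2*, from -0.077 to 0.48 for *Xbp1*, from -0.27 to 0.097 for *Atf6*, from -0.014 to 0.12 for *Hspa8*, from -0.10 to 0.13 for *Hsp90ab1*, from -0.023 to 0.12 for *Hsp90aa1*, from -0.074 to 0.054 for *Cd79b*, from -0.20 to 0.098 for *Ms4a1*, from -0.041 to 0.27 for *Pax5*, from -0.0012 to 0.19 for *Cd22*, from -0.15 to 0.0093 for *Pou2af1*, from -0.91 to 0.086 for *Jchain*, from -1.28 to 0.62 for *Lyz2*, from -0.69 to 0.013 for *Adgre1* and from -0.033 to 0.52 for *Tent5c*. Depth limits *Sil1* and *Dnajb9* most, with 187 to 346 fragments in a library, and 3 pairs limit all of the tests.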

Other observations

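Beyond the 10 chaperone genes, the ERSE lay in the promoters of 1 disulfide isomerase (*Pdia6*), 2 lectin chaperones (*Calr* and *Canx*) and 2 degradation genes (*Derl3* and *Syvn1*) among the ER lists, and in 0 of the 23 promoters of chaperones outside the ER. Of all tested genes with the element, 16 in number, 8 were lower in KO in all 3 pairs (13.1% of all genes tested were) and the median log2 fold change was -0.23. Without the chaperone genes, 4 of 12 were lower in all pairs and the median was -0.13. These genes were picked by sequence alone, after the chaperone values had been seen, and the median was not tested.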
